A study of Mus musculus with 24 samples.

Results

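YAP and TAZ, encoded by Yap1 and Wwtr1, are transcriptional coactivators, and the 10 genes described here are these 2 and 8 genes counted among their targets and partners: Ccn1, Ankrd1, Amotl1, Amotl2, Ajuba, Axl, Lats2 and Ptpn14. They were chosen by name and found by gene identifier among the 36528 gene models of each library, and all 10 were present. The 24 libraries came from fibroblastic reticular cells (FRC), the stromal cells that build the scaffold of lymphoid tissue, and from endothelial cells of high endothelial venules (HEV), through which lymphocytes enter it. Both were sorted by flow cytometry from Peyer's patches, which are lymphoid follicles in the wall of the small intestine, at 1000 cells per mouse. One group of mice was unperturbed and is called control. The other drank polyethylene glycol (PEG), an osmotic agent meant to diminish fluid flow, freely in the water at 10% w/v for 3 days. There were 7 FRC control, 7 FRC PEG, 4 HEV control and 6 HEV PEG libraries, polyA RNA being measured in each. The labels give no strain, age or sex of the mice, no sort markers and no pairing of FRC and HEV libraries by mouse.

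YAP and TAZ bind no DNA themselves and act in the nucleus through TEAD transcription factors. The Hippo pathway, a kinase cascade ending in LATS1 and LATS2, phosphorylates them and holds them in the cytoplasm, and stretch, shear and a stiff matrix favour their entry into the nucleus. Several targets feed back: LATS2 is a kinase that inhibits them, and the angiomotin-like proteins AMOTL1 and AMOTL2 and the phosphatase PTPN14 bind and retain them. Because phosphorylation sets where the proteins are, the RNA of Yap1 and Wwtr1 does not measure their activity. In lymphoid stroma this cofactor pair is known for a part in the maturation of fibroblasts that become reticular cells.

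The promoters of most members shared a motif. The genes were chosen by name as YAP, TAZ and their known targets and partners, so this sharing is not independent of the choice. GGAATG, the core of the motif bound by TEAD factors, or its reverse complement CATTCC, was searched on both strands in RefSeq promoter windows of 300 bases around each transcription start. It was found in 9 of 10 members and in 16.6% of the 27025 genes with a window. The 8 members with a match upstream of the start are printed 5′ to 3′ on the strand of the gene (RefSeq, GRCm38.p6), because each holds the letters that TEAD factors read, and capitals mark the match.
Yap1 (chr9:8004707-8004762, minus strand): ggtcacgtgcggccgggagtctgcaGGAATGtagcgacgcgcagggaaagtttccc
Wwtr1 (chr3:57576016-57576071, minus strand): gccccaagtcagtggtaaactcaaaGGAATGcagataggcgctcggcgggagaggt
Ccn1 (chr3:145650058-145650113, minus strand): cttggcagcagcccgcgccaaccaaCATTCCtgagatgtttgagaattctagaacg
Ankrd1 (chr19:36119937-36120079, minus strand): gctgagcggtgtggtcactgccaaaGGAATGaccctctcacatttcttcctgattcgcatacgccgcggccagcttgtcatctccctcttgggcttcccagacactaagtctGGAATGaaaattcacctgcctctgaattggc
Amotl2 (chr9:102717714-102717769, plus strand): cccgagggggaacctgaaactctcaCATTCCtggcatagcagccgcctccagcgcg
Ajuba (chr14:54577795-54577872, minus strand): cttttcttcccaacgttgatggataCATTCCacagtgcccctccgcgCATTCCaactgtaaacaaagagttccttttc
Axl (chr7:25788936-25788983, minus strand): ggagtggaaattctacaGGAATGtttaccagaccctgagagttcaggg
Ptpn14 (chr1:189728097-189728152, plus strand): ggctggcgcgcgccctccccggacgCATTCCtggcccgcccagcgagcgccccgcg
Ankrd1 and Ajuba each held 2 matches in the first window, and the other 6 held 1. Ccn1, Amotl2, Ajuba and Ptpn14 carried the reverse complement, so that the motif lay on the strand opposite to the gene. The match of Lats2 began 4 bases after the start, and the window of Amotl1 held none. That window (chr9:14614951-14615250) lay inside the annotated gene (chr9:14541966-14662974), as did the window of Amotl2, and other starts of these genes were not searched. For Ajuba and Axl the bases just after the start were not found in a GENCODE transcript of the gene, so distances from the start are less certain there. The AP-1 motif TGANTCA (8.97% of genes) and the serum response factor motif, the CArG box (1.81% of genes), were in 0 of 10 members. No TEAD match therefore overlapped either motif. A match describes these letters only, the genes are known targets, and many TEAD sites lie in enhancers outside such windows.

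**Figure D1:**
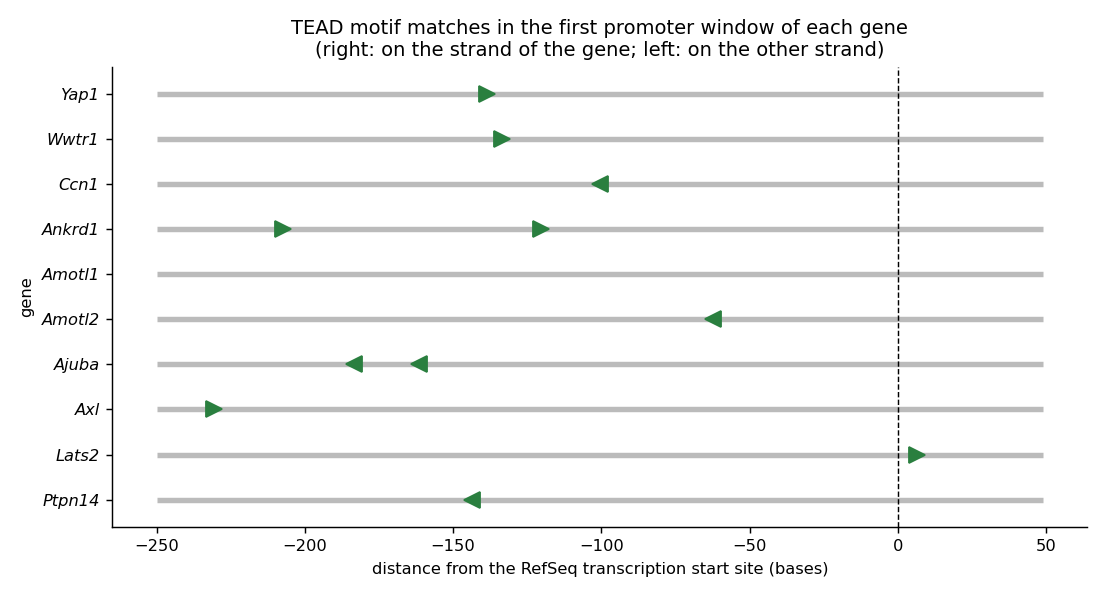
Position of each TEAD motif match (triangles) in the first RefSeq promoter window (grey bars) of the 10 genes, as distance in bases from the transcription start. Ankrd1 and Ajuba have 2 matches, Amotl1, whose window lies inside the gene, has none and the match of Lats2 lies after the start.

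Libraries held 3115003 to 21710946 reads in genes, with a median of 16136689. HEV PEG library 16 was the shallowest and the next held 12416032. The sorted cells carried their defining markers: the fibroblast marker Pdgfra was at 355 CPM (counts scaled to the library total) or more in every FRC library and at 1.61 CPM or less in every HEV library, and the endothelial marker Pecam1 was at 451 CPM or more in every HEV library and at 9.70 CPM or less in every FRC library. The same index pairs return every 8 libraries, so that 3 pools of 8 were inferred and entered every fit. In Ccn1 in both cell types and in Amotl2 in FRC the first 9 libraries lay apart from the rest, with values given after the comparisons. Values from bulk RNA cannot tell fewer cells of a type from less RNA per cell.

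Members differed widely in level. On the scale per gene length (the deposited size-factor-adjusted RPKM), Ccn1, a secreted matricellular protein that binds integrins, was the most abundant in every group, with a median of 373 in FRC controls, 481 in FRC PEG, 177 in HEV controls and 125 in HEV PEG libraries. Next in FRC controls came Axl, the receptor tyrosine kinase for GAS6, at 21.8, Wwtr1 at 20.8 and Amotl1 at 16.9. Lats2 followed at 11.2, Amotl2 at 8.99, Yap1 at 6.44 and Ptpn14 at 1.39. Ajuba, a LIM domain protein that binds LATS kinases, was at 0.845, and Ankrd1, a nuclear ankyrin repeat protein, was at 0.0768. Wwtr1 had a higher median per length than Yap1 in each of the 4 groups, at 16.7 against 7.80 in FRC PEG, 24.7 against 4.25 in HEV control and 24.9 against 5.55 in HEV PEG libraries. Neighbours in this order overlapped between FRC control libraries, except Ccn1 with Axl and Yap1 with Ptpn14: Axl ranged from 14.2 to 39.4, Wwtr1 from 13.9 to 25 and Amotl1 from 10.3 to 21.2.

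**Figure D2:**
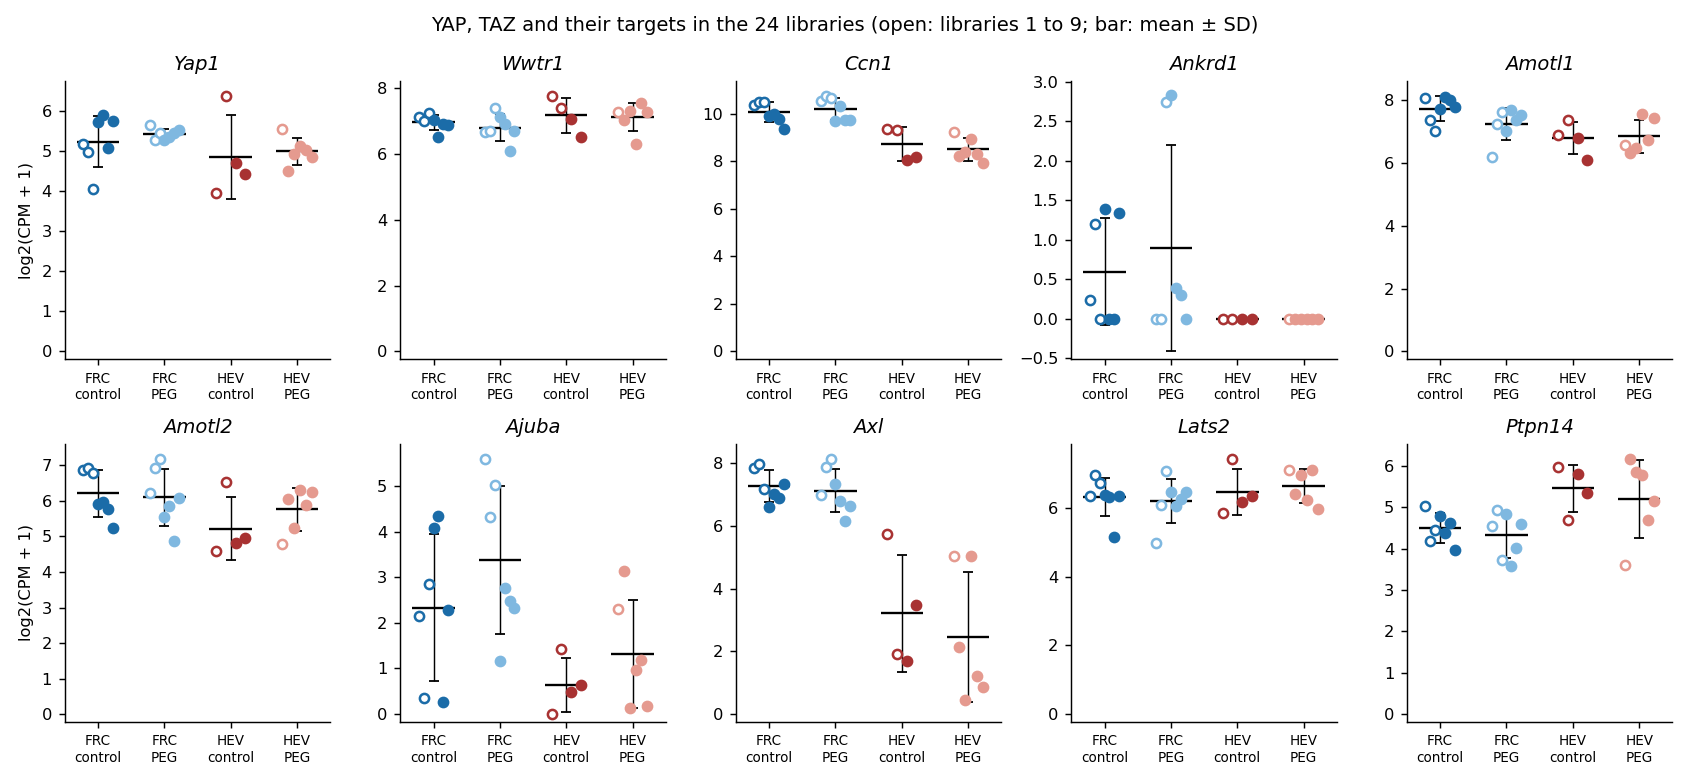
Level of each of the 10 genes, as log2(CPM + 1), in every library of the 4 groups, with open points for libraries 1 to 9 and bars for the mean ± SD. Ccn1 and Axl are lower in all HEV than in all FRC libraries, Ankrd1 is at 0 in all HEV libraries, and PEG and control points overlap for every gene with reads in both groups.

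The first comparison asked which members each cell type expressed without PEG. Ccn1, Axl and Amotl1 were lower in HEV than in FRC, and no member was higher. These were 3 of the 9 members tested, beside 24.6% of all 15743 genes tested (14.2% lower, 10.4% higher), so the share of members was near that of all genes. The median log2 fold change of HEV over FRC was -0.60 over the members and -0.16 over all genes. Ankrd1 had too few reads to be tested. Other lists moved with the cell type: 11 of 13 smooth muscle and pericyte markers were lower and 1 higher in HEV controls, with mean levels of 6.72 to 7.48 on the log2(CPM + 1) scale in FRC and 1.07 to 4.20 in HEV controls. Of 20 immediate early genes, 7 were higher and 3 lower in HEV controls. Their part in the members' values was not tested.

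Ccn1 was measured at 659, 1029 and 1462 CPM (lowest, median, highest) in FRC controls and at 265, 291, 644 and 650 CPM in the HEV controls. No HEV control library reached the lowest FRC control. HEV over FRC, the log2 fold change was -1.07 (SE 0.17, adjusted p = 0.00071 by edgeR's quasi-likelihood test with Benjamini-Hochberg adjustment, n = 7 and 4). Within libraries 1 to 9 it was -1.08 and within libraries 10 to 24 it was -1.34, with adjusted p of 0.00867 and 0.00613 by edgeR.

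Axl was at 95.2, 142 and 252 CPM (lowest, median, highest) in FRC controls. In the HEV controls it was at 2.25, 2.74, 10.1 and 52.3 CPM. The highest HEV library, number 8, stood well above the other 3 and still below every FRC control. This was a log2 fold change of -3.65 (SE 0.64, edgeR adjusted p = 0.00133), and of -4.71 without that library (adjusted p = 0.000181). Libraries 1 to 9 alone gave -2.86 and did not pass (adjusted p = 0.181), and libraries 10 to 24 gave -4.38 (adjusted p = 0.00601). In HEV library 8 the mean level of the 13 fibroblast markers was 1.20 on the log2(CPM + 1) scale. HEV controls 9, 17 and 24 were at 2.23, 1.41 and 1.04, and FRC controls at 8.18 to 8.46. The part of other cell types in this Axl value was not tested.

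Amotl1 was at 128, 216 and 273 CPM (lowest, median, highest) in FRC controls and at 67.7, 109, 117 and 164 CPM in HEV controls. The groups overlapped, because 1 HEV library lay within the FRC range. Amotl1 had a log2 fold change of -0.87 (SE 0.27, edgeR adjusted p = 0.0352). This call rested on single libraries: it was lost without FRC control 4, 13, 20 or 21 or HEV control 8, 17 or 24, with adjusted p from 0.0568 to 0.101. It was also lost with the epithelial marker level as a covariate (adjusted p = 0.05) and in libraries 1 to 9 alone, where the log2 fold change was -0.36 (adjusted p = 0.661).

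Ptpn14 was the member with the largest positive difference, and it missed the threshold. It was at 14.6, 20.9 and 31.7 CPM (lowest, median, highest) in FRC controls and at 25, 39.3, 55.1 and 61.9 CPM in HEV controls. Of the 4 HEV libraries, 3 lay above every FRC control. The log2 fold change was 1.11 (SE 0.39, edgeR adjusted p = 0.0548), and it passed under 5 of the alternatives run, among them DESeq2 (adjusted p = 0.0112) and the fit without HEV control 9 (1.42, edgeR adjusted p = 0.0299). Ajuba was at 0.201, 3.87 and 19.3 CPM (lowest, median, highest) in FRC controls and at 0, 0.409, 0.556 and 1.69 CPM in HEV controls. Its log2 fold change of -3.34 (SE 1.52, edgeR adjusted p = 0.139) passed only with DESeq2 (adjusted p = 0.0109) among the alternatives run.

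Yap1 and Wwtr1 themselves did not pass. Yap1 was at 15.5, 35.1 and 59 CPM (lowest, median, highest) in FRC controls and at 14.4, 20.5, 25 and 81.3 CPM in HEV controls, so the HEV controls spanned the whole FRC range. Yap1 had a log2 fold change of -0.41, with a 95% interval from -1.34 to 0.53. Wwtr1 was at 90.5, 128 and 153 CPM in FRC controls and at 90.1, 134, 168 and 215 CPM in HEV controls. Its log2 fold change was 0.40, with an interval from -0.12 to 0.91. Lats2 (0.34, interval -0.49 to 1.18) and Amotl2 (-0.60, interval -1.59 to 0.39) did not pass either, and their groups overlapped. For Amotl2 single HEV controls moved the value, to -1.24 without library 9 (edgeR adjusted p = 0.051) and to -0.031 without library 8 (adjusted p = 0.964).

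Ankrd1 was at 0 reads in all 10 HEV libraries. The FRC controls held 76 reads of it in all and the FRC PEG libraries 206, with 3 of 7 libraries at 0 in each group. Against a floor of 3 reads over the HEV group, Ankrd1 was at least 14.1-fold lower in HEV controls than in FRC controls and at least 45.2-fold lower in HEV PEG than in FRC PEG libraries. The floor covers counting error only, and 2 FRC PEG libraries, at 5.70 and 6.16 CPM, held most of the reads of that group. In controls the bound was 10.4-fold without FRC control library 12 and 11.1-fold without library 21. Without FRC PEG library 10 the bound under PEG was 26.2-fold, and without library 3 it was 28.4-fold. These alternatives were chosen after seeing the data.

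The same contrast under PEG used other libraries. Ccn1 and Axl were again lower in HEV, 2 of 9 members tested beside 26.8% of all 14991 genes (14.4% lower, 12.5% higher). Without the count filter, and with all 24 libraries in 1 model, Ankrd1 was tested as well and a total of 3 members passed. Ccn1 was at 823, 1282 and 1709 CPM (lowest, median, highest) in FRC PEG and at 240, 330 and 599 CPM in HEV PEG libraries. The groups did not overlap. The log2 fold change was -1.47 (SE 0.17, edgeR adjusted p = 1.57e-05), and -1.54 without the shallow HEV PEG library 16. Axl was at 70.1, 124 and 278 CPM in FRC PEG and at 0.351, 2.35 and 32.1 CPM in HEV PEG libraries. These groups were separate too, although HEV libraries 7 and 16 lay at 31.9 and 32.1 CPM and the other 4 at 3.36 CPM or less. For Axl the log2 fold change was -4.02 (SE 0.91, edgeR adjusted p = 0.00503), and -4.95 without library 16. The fibroblast marker level was 1.08 in library 7 and 1.77 in library 16, the highest of the HEV PEG libraries. The other HEV PEG libraries were at 0.88 to 1.67. The part of other cell types in the Axl values was not tested.

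Amotl1 did not pass under PEG, with a log2 fold change of -0.42 (interval -1.05 to 0.22), and neither did Ptpn14 at 0.78 (interval -0.28 to 1.83) or Ajuba at -1.75 (interval -4.14 to 0.64). Ptpn14 passed in libraries 10 to 24 alone (1.25, edgeR adjusted p = 0.0425) and Ajuba without HEV PEG library 14 (-2.77, adjusted p = 0.0256). The test of the difference between the 2 contrasts, the interaction described below, gave 0.44 (SE 0.38, edgeR adjusted p = 0.752) for Amotl1, so its call in controls and lack of one under PEG are not shown to differ. Yap1 was at -0.31 (interval -0.86 to 0.24) and Wwtr1 at 0.42 (interval -0.16 to 0.99). Under PEG all FRC libraries carried one i5 index and all HEV libraries the other, so index and cell type cannot be told apart there. In controls, where both indices occur, adding the index to the fit gave -1.07 for Ccn1 (edgeR adjusted p = 0.00151) and -3.83 for Axl (adjusted p = 0.000922).

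**Figure D3:**
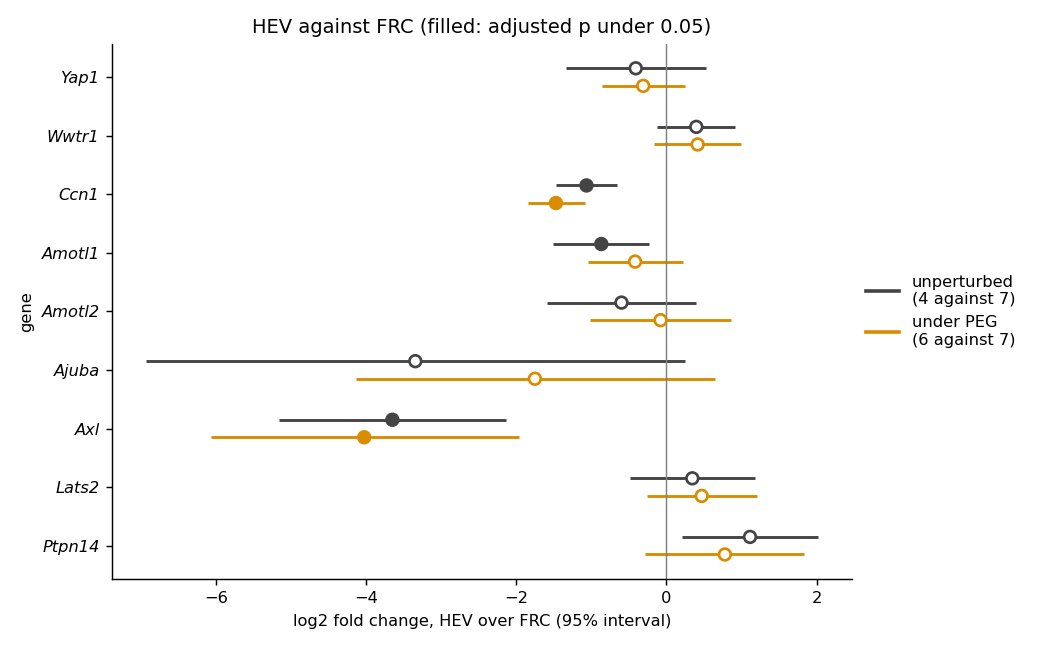
Log2 fold change of HEV over FRC with its 95% interval for the 9 members tested, in unperturbed mice (grey) and under PEG (orange), filled where the adjusted p was under 0.05. Ccn1 and Axl are filled on the negative side in both comparisons and Amotl1 only in unperturbed mice.

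YAP and TAZ reach their targets through TEAD factors. The list of TEAD factors and cofactors read here also held Trps1, Runx1 and Runx2. Of its 9 genes tested, 5 were lower and 1 was higher in HEV controls, and 4 were lower and 1 was higher under PEG. The lower ones in controls were Tead1, Tead3, Vgll3, Runx1 and Runx2. Under PEG they were Tead3, Vgll3, Runx1 and Runx2, without Tead1. Of all genes tested, 14.2% were lower and 10.4% higher in controls, and 14.4% lower and 12.5% higher under PEG. Tead1 was at 52.3 ± 25.6 CPM in FRC controls (SD, n = 7) and 16.5 ± 6.59 CPM in HEV controls (SD, n = 4), a log2 fold change of -1.48 (edgeR adjusted p = 0.0295). That call was lost without HEV control 8, 17 or 24 or FRC control 20 or 21 (adjusted p from 0.0541 to 0.129). Tead3 was at 10.3 ± 4.49 CPM in FRC and 0.0685 ± 0.0964 CPM in HEV controls. Vgll3, a cofactor that competes for TEAD factors, was at 22.4 ± 13.2 CPM in FRC controls and 0.237 ± 0.475 CPM in HEV controls. Runx1 and Runx2, RUNX factors known to work with YAP and TAZ, were lower in HEV as well, Runx1 at 4.73 ± 2.07 CPM against 77.5 ± 24.3 CPM. Tead4 alone was higher in HEV controls, at 12.6 ± 8.97 CPM against 0.233 ± 0.498 CPM, but the call was lost without HEV control 8 (adjusted p = 0.13) or 9 (adjusted p = 0.0643). Under PEG Tead4 was again the gene called higher, with a log2 fold change of 6.535. That call was kept in all 22 alternatives that gave a value.

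Of 31 other YAP and TAZ target genes tested, 9 were higher and 14 lower in HEV controls, beside 24.6% of all genes called. Under PEG 8 were higher and 12 lower of 30, beside 26.8% of all genes. Their median log2 fold change was -1.36 in controls and 0.04 under PEG, and both comparisons held calls in each direction. The interaction described below called 0 of 31 of them by edgeR, so the 2 comparisons are not shown to differ. On the lower side, F3, tissue factor, was at 212 ± 58.9 CPM in FRC controls and 0.0158 ± 0.0316 CPM in HEV controls, and Foxf2, a forkhead factor of gut mesenchyme, at 136 ± 44.8 CPM and 0.0146 ± 0.0291 CPM. Igfbp3, a binding protein of insulin-like growth factors, was at 690 ± 223 CPM and 31.8 ± 11.0 CPM. On the higher side, Edn1, which encodes the vasoconstrictor endothelin, was at 58.2 ± 30.5 CPM in HEV and 0.194 ± 0.298 CPM in FRC controls. Crim1, a membrane protein that binds bone morphogenetic proteins, was at 131 ± 26 CPM against 20.1 ± 7.52 CPM.

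Among 37 Hippo kinases, scaffolds and upstream regulators tested, 4 were higher and 5 lower in HEV controls, and under PEG 6 were higher and 5 lower of 36. Of all genes tested, 24.6% were called in controls and 26.8% under PEG. The share of this list was near that of all genes, so its counts say nothing particular about the Hippo pathway. The protocadherin Fat1 was at 37.2 ± 9.61 CPM in FRC and 0.758 ± 0.505 CPM in HEV controls. Frmd6, an upstream activator of the pathway, was at 78.4 ± 12.6 CPM and 4.61 ± 3.23 CPM. The hyaluronan receptor Cd44 had a log2 fold change of -2.01 (edgeR adjusted p = 0.00115). Rassf1, a scaffold of the Hippo kinases, was higher in HEV at 353 ± 107 CPM against 94.0 ± 25 CPM, with a log2 fold change of 1.87 (edgeR adjusted p = 0.000147). Taok2, a kinase that activates the cascade, was higher by 1.34 (edgeR adjusted p = 0.00158). Libraries 1 to 9 alone, with 3 FRC and 2 HEV controls, kept the direction and lost the call for Frmd6, Rassf1, Taok2, Runx2, Tead1, Tead3 and Vgll3 (edgeR adjusted p from 0.0548 to 0.145). Libraries 10 to 24 alone lost it for Taok2 (adjusted p = 0.0683), Tead1 (0.0905) and Tead4 (0.417).

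The study gave PEG to lower flow, and the next comparison asked whether members changed with it. None passed the test: 0 of 9 members tested in FRC and 0 of 9 in HEV by edgeR, beside 0% of all 14595 genes in FRC and 0% of all 14308 genes in HEV. These shares are equal, so the count says nothing particular about the members, and Ankrd1 was not tested. At an unadjusted p under 0.05 there were also 0 members in each cell type, beside 989 genes in FRC and 886 in HEV. DESeq2 called 0 members, beside 57 genes in FRC and 116 in HEV. The median log2 fold change over the members was -0.04 in FRC and -0.05 in HEV, and over all genes it was 0.01 in both. In each cell type the PEG libraries carried a single i5 index and the controls carried both, so index and PEG were partly confounded. With the index in the fit 0 members were called, but in HEV Yap1 moved from -0.15 to 0.77 and Ptpn14 from -0.60 to -1.14.

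Amotl1 in FRC came closest. It was at 71.8, 163 and 202 CPM (lowest, median, highest) in FRC PEG libraries beside 128, 216 and 273 CPM in FRC controls. All 7 PEG libraries lay below the control median, but 5 lay within the control range. The log2 fold change was -0.44, with a 95% interval from -0.91 to 0.03 (unadjusted p = 0.0535, edgeR adjusted p = 0.742). Under the alternatives run it stayed between -0.60 and -0.33 and its lowest adjusted p was 0.167, with DESeq2. In HEV the log2 fold change of Amotl1 was -0.01 (interval -0.86 to 0.83).

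Yap1 in FRC was at 37.4, 42.9 and 49.2 CPM (lowest, median, highest) under PEG, all of it inside the control range of 15.5 to 59 CPM. The coefficient of variation was 10.0% in PEG and 38.9% in control libraries, a difference in spread that was not tested. The log2 fold change was 0.18 (interval -0.41 to 0.76), and libraries 10 to 24 alone gave -0.22. In HEV, Yap1 was at 21.7, 30.3 and 45.7 CPM under PEG, within the control range (log2 fold change -0.15, interval -1.34 to 1.04). Wwtr1 was at 66.8, 103 and 167 CPM in FRC PEG and 77.7, 154 and 188 CPM in HEV PEG libraries. Its log2 fold changes were -0.12 (interval -0.51 to 0.27) and -0.05 (interval -0.76 to 0.67).

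Ccn1 had the narrowest interval in FRC, with a log2 fold change of 0.17 from -0.07 to 0.41. In HEV it was -0.33, from -0.89 to 0.23, and -0.076 without HEV control 9. That library, at 644 CPM, lay with the HEV libraries of pool 1 but entered the fit in pool 2. The interaction, HEV minus FRC in their response to PEG, was -0.47 for Ccn1 (SE 0.22, unadjusted p = 0.0417, edgeR adjusted p = 0.472). Leaving out single libraries moved this interaction between -0.58 and -0.23. Of the 9 members with reads in HEV, 0 passed the interaction test, beside 0.011% of 18203 genes. Axl had a log2 fold change of -0.10 in FRC (interval -0.59 to 0.39) and -0.996 in HEV (interval -4.43 to 2.43), where 3 of 6 PEG libraries lay below the lowest control. Leaving out single libraries moved the HEV value of Axl from -1.94 (without control 9) to -0.076 (without control 24), with no call. Amotl2 was at -0.04 in FRC and 0.30 in HEV, Lats2 at -0.04 and 0.06, and Ptpn14 at -0.11 and -0.60. The intervals of Ajuba were the widest, from -1.16 to 3.71 in FRC and from -2.63 to 5.40 in HEV, and changes within them were not detectable at this spread between libraries.

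**Figure D4:**
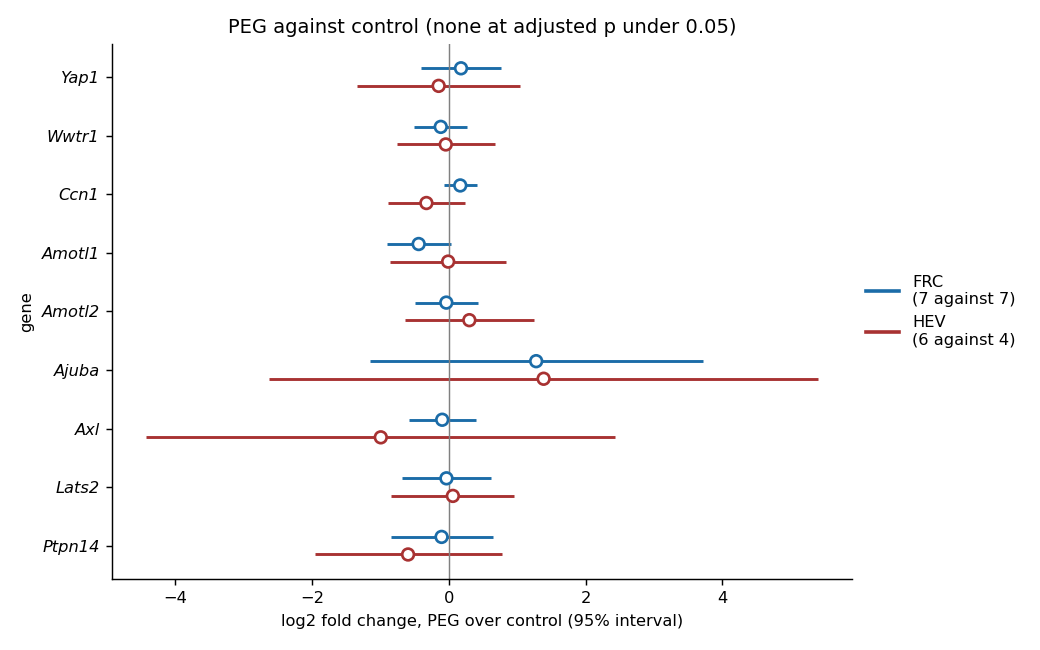
Log2 fold change of PEG over control with its 95% interval for the 9 members tested, in FRC (blue) and HEV (red). Every interval includes 0, and those of Ajuba and of Axl in HEV are the widest.

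By edgeR with the count filter, the surrounding pathway gave no call under PEG. In FRC and in HEV, 0 of the tested Hippo regulators (36 and 35), TEAD factors and cofactors (8 and 6), other targets (29 and 27) and immediate early genes (20 and 20) passed. Without the count filter Ppp2r1a, a scaffold subunit of the phosphatase PP2A, passed in FRC with a log2 fold change of 0.995 (edgeR adjusted p = 0.000703). Under the same setting Marcks, a membrane-bound substrate of protein kinase C, passed in HEV with 1.16 (edgeR adjusted p = 0.0196). Of the other targets, 7 of 29 had an unadjusted p under 0.05 in FRC and 1 of 27 in HEV by edgeR, beside 989 of all 14595 and 886 of all 14308 genes. The log2 fold changes of this list were split, 15 positive and 14 negative in FRC (median 0.05) and 18 and 9 in HEV (median 0.23). Among the 7 in FRC Myof, the membrane repair protein myoferlin, was at 55.6 ± 17.9 CPM in FRC controls and 31.3 ± 9.20 CPM under PEG (edgeR adjusted p = 0.606). The 17 epithelial markers tested in FRC all had positive log2 fold changes under PEG, with a median of 1.74. Their mean level was 4.10 in FRC PEG and 2.51 in FRC control libraries on the log2(CPM + 1) scale (exact permutation p = 0.182, two-sided, adjusted p = 0.716). In HEV all 18 tested had positive log2 fold changes with a median of 1.56, and the mean level was 4.17 in PEG and 3.17 in control libraries (exact permutation p = 0.486, two-sided, adjusted p = 0.716). Their part in the members' values was not tested.

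Members also varied with the order of the libraries. In FRC libraries 1 to 9, Ccn1 was at 1329, 1482 and 1709 CPM (lowest, median, highest), and in FRC libraries 10 to 24 it was at 659, 867 and 1282 CPM. These ranges were separate, although each set held both PEG and control libraries. In HEV the 3 libraries up to number 9 were at 599, 644 and 650 CPM and the 7 later ones between 240 and 493 CPM, again separate. The labels give no cut after library 9, which was set where values stood apart, and the inferred pool 1 ends at library 8. With library 9, at 644 CPM, counted among the later libraries, the HEV ranges overlapped. How many of all genes were separate at this cut was not counted. Amotl2 in FRC was at 74.2, 118 and 144 CPM in the first set and at 28.1, 55.3 and 67.2 CPM in the second, separate as well. In HEV its ranges overlapped, from 23.0 to 90.9 CPM and from 26.9 to 78.7 CPM.

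The pool term of the FRC fit, a test added after these values were seen, passed for Ccn1, Amotl2 and Axl, 3 of 9 members tested beside 8.34% of all 14595 genes. Against the first pool, Ccn1 was lower by 0.62 and 0.96 on the log2 scale in pools 2 and 3 (log2 differences -0.62 and -0.96, edgeR adjusted p = 0.000712). Amotl2 had differences of -1.09 and -1.36 (edgeR adjusted p = 0.00422). Axl had differences of -0.83 and -0.98 (edgeR adjusted p = 0.0389), a call lost when any of 10 of the 14 libraries was left out (adjusted p from 0.0586 to 0.0994): FRC PEG 2, 3, 11, 18 or 19 or FRC control 4, 5, 12, 13 or 20. In HEV the pool term passed for 0 members and 0% of genes by edgeR. Ccn1 had an unadjusted p of 0.00606 there (adjusted p = 0.328).

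Some immediate early genes, which cells switch on within minutes of stress such as tissue dissociation, moved with the same libraries. Of 20 such genes tested, 10 passed the pool term in FRC, beside 8.34% of all genes. All 10 were lower in the later pools, among them Btg2 (log2 differences -1.692 and -1.997), Dusp1 (-1.78 and -1.73), Egr2 (-2.38 and -1.60) and Ier2 (-1.09 and -1.25). Egr1 (-0.024 and 0.07) and Ier3 (-0.067 and 0.607) did not pass and were not lower in both. Their mean level in FRC was 8.80 to 9.14 in libraries 1 to 9 and 7.65 to 8.61 in libraries 10 to 24. In HEV it was 8.90 to 9.20 and 8.42 to 8.94. Ccn1 is itself known as an immediate early gene of growth factor stimulation. The part of the immediate early genes in the level of Ccn1, Amotl2 and Axl was not tested.

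**Figure D5:**
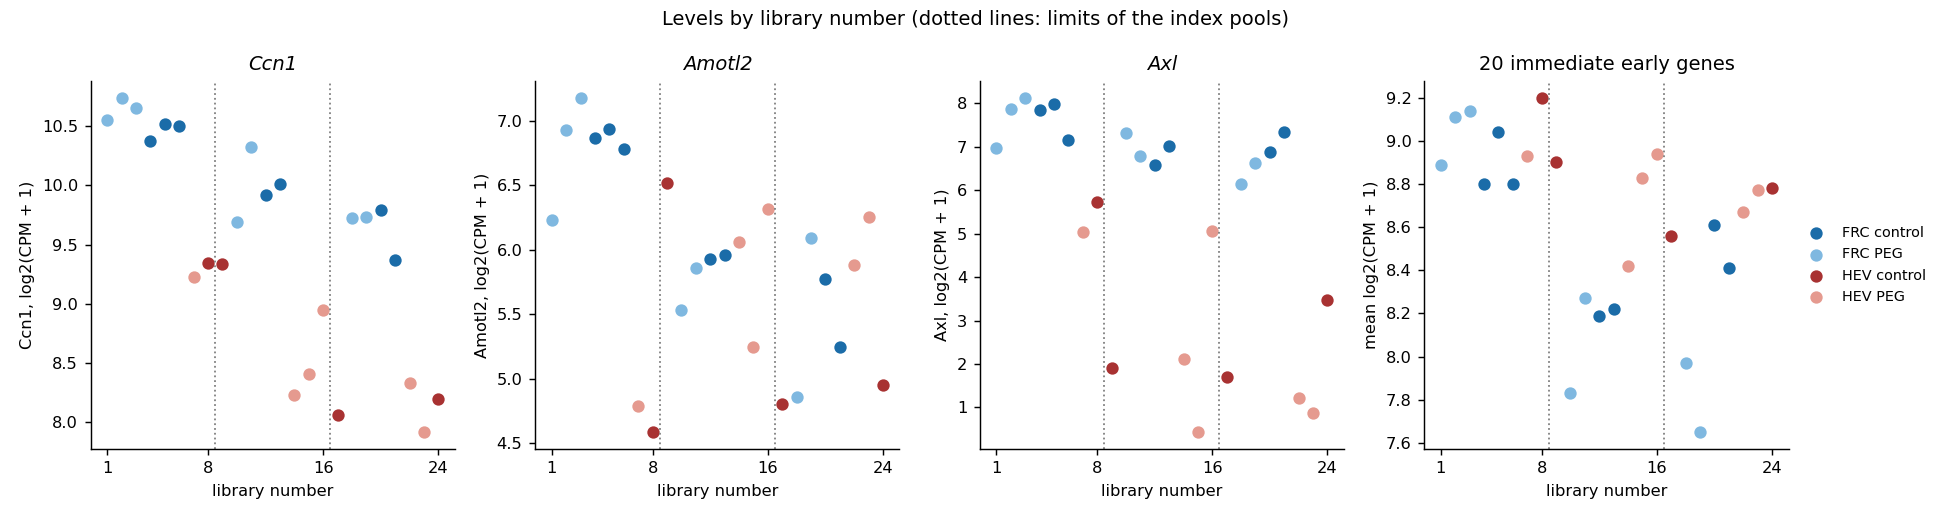
Levels of Ccn1, Amotl2 and Axl, as log2(CPM + 1), and the mean level of 20 immediate early genes, by library number in the 4 groups, with dotted lines at the limits of the pools. FRC libraries 1 to 9 lie above FRC libraries 10 to 24 for Ccn1, Amotl2 and the immediate early genes, without overlap.

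Because the library sets stood apart, covariation among members was read within each set of FRC libraries. Of 45 pairs, 25 had a positive Pearson r in libraries 1 to 9 (n = 6, median r 0.22) and 25 in libraries 10 to 24 (n = 8, median r 0.06). The pair with the smallest permutation p in the first set was Amotl2 with Axl, with r of 0.88 and Spearman's rho of 1.0. In the second set its r was 0.15 and its rho -0.14. Amotl2 with Lats2 had a higher r of 0.9 in the first set, and -0.08 in the second. After adjustment over the pairs of both sets 0 were called in exact permutation tests, but with 6 libraries a lone pair cannot fall below an adjusted p of 0.125, the value reached, so that the first set had no power to call one. Yap1 with Wwtr1 had r of -0.44 and -0.24.

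The genes most alike in pattern to a member were ranked by Pearson r over the 14 FRC libraries among 11682 genes, as a description. For Yap1 they were Spindoc (r 0.907), Timm22 (0.856) and Tab2 (0.853), and for Wwtr1 they were Hilpda (0.92), Cux1 (0.851) and Fyco1 (0.817). For Ccn1 they were Hyou1 (0.964), Tubb5 (0.937) and Tgm2 (0.929). The likeness differed between the library sets. For Ccn1 the r within libraries 1 to 9 and within libraries 10 to 24 was 0.63 and 0.91 for Hyou1, 0.34 and 0.86 for Tubb5, and 0.78 and 0.8 for Tgm2. For Yap1 it was 0.91 and 0.38 for Tab2 and 0.88 and 0.65 for Timm22. Spindoc and Hilpda kept r of 0.89 or more within both sets.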

How the data were processed

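RNA of 24 libraries was analysed from 1 deposited file each. Per the labels' protocols, cDNA was made by template switching, libraries with a transposase kit, low quality, ribosomal and adapter reads were discarded, and only reads with a unique position counted. Reads were aligned with GSNAP to mm9, per the submitters' processing notes; the protocol text names a human build. Per the file headers, the deposited columns are a read count per gene model and an RPKM, which the authors scaled by a size factor. The RPKM equalled count over size factor, up to a gene constant, in 8770 of 8770 genes checked (tolerance 1e-06), and that constant followed exon length (Spearman's rho 0.882 over 8252 genes). It was used only to compare levels between genes. Symbols came from RefSeq, GRCm38.p6, which named 85.0% of gene models; gene coordinates of mm9 are not printed.

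Counts were filtered (filterByExpr, count minimum 10), scaled by TMM and tested by edgeR's quasi-likelihood F test (two-sided, pool as covariate; R 4.3.3 with edgeR 4.0.16 and limma 3.58.1), with Benjamini-Hochberg adjustment over all genes and calls under 0.05, after checks on simulated data. CPM are scaled to library totals without TMM. Marker levels are means of log2(CPM + 1). DESeq2 (1.42.0), limma-voom, other scalings, filters, covariates and each library left out were alternatives. Intervals are 95% and, like the floor of 3 counts, rest on reads without molecular identifiers. Libraries of different mice are the replicates; FRC and HEV libraries may share mice. Members and gene lists were chosen with earlier results of these data known. Genes named are all members and, per list, up to 4 genes of smallest p per direction that passed, otherwise 2; Tead1 and the immediate early genes given for the pool term were picked with their values in view, beyond that rule. Some genes that the rule names are not reported here. Pools are inferred from recurring indices. Protein sequences were not analysed here.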

Additional observations from a re-analysis of the deposited data

Results flagged for a closer look

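Of 38 groups of member values examined for a single distant library, 3 held one, and chance gives about 1 in 20 where values follow a normal distribution. The values were CPM without a log, and whether they follow one was not tested. All 3 were HEV controls, a group of 4. Yap1 was at 81.3 CPM in HEV control 9, far above the next library at 25 CPM. Amotl2 was at 90.9 CPM in the same library, with the next at 30.0 CPM. Axl was at 52.3 CPM in HEV control 8, with the next at 10.1 CPM.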

How the results depend on the processing

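No paired analysis was possible because library numbers are unique and the labels pair no libraries across groups. For Ankrd1, at 0 reads in every HEV library, depth limits the bound that can be given there. In FRC PEG it was at 0 reads in library 1, of 21710946 reads in genes, and at 94 in library 3, of 16486323. For Ajuba, at 3 to 349 reads in FRC controls, the spread between libraries is far wider than counting error. Libraries 1 to 9 alone gave no fit for PEG in HEV, for HEV against FRC under PEG or for the interaction; that setting also drops the pool term. Ccn1 was called in both cell type comparisons under all alternatives run, and Axl under all but libraries 1 to 9 alone. Members called between the cell types in controls were 3, with DESeq2 5, with libraries 1 to 9 alone 1; under PEG they were 2, or 3 without the filter, with all 24 libraries in 1 model, with libraries 10 to 24 alone or without HEV PEG 14. By contrast 0 were called for PEG or the interaction under any alternative run. Genes called between the cell types in controls numbered 3869, with libraries 10 to 24 alone 2276 and libraries 1 to 9 alone 1477. For PEG in FRC 0 genes passed with edgeR, 177 without a filter and 57 with DESeq2; in HEV 0, 141, 116 and, with all 24 libraries in 1 model, 18. For the interaction 2 passed, 38 without a filter, 350 with DESeq2, 5 without covariate, and 0 with limma-voom, with pool plus i5 index or with libraries 10 to 24 alone; leaving out each library gave 1 to 16. The cause was not tested for any of these, nor for the reversals of uncalled log2 fold changes that follow.

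For PEG in FRC, libraries 10 to 24 alone turned Ajuba to -0.61, Lats2 to 0.24 and Yap1 to -0.22; libraries 1 to 9 alone turned Axl to 0.03, Jund to 0.17 and Ppp2r1a (1.0, adjusted p = 0.579) to -0.018, beside 1.76 in libraries 10 to 24 (edgeR adjusted p = 0.0976) and a call without the filter (0.995, adjusted p = 0.000703); pool plus i5 index turned Axl to 0.012 and Lats2 to 0.30, and limma-voom Lats2 to 0.029. For PEG in HEV, Amotl1 (-0.011) turned to 0.015 with DESeq2 size factors or its test, 0.014 with the submitters' size factors, 0.009 at a count minimum of 50, 0.18 with limma-voom, 0.021 without covariate, 0.35 with the i5 index and 0.57 in libraries 10 to 24. Wwtr1 turned to 0.12 with limma-voom, 0.23 with the i5 index, 0.046 with the epithelial level and 0.54 in libraries 10 to 24; Yap1 to 0.19, 0.77 and 0.31 with limma-voom, the i5 index and libraries 10 to 24. Those libraries also turned Btg2 to 0.064 and Map4k5 to 0.036 there. Between the cell types, libraries 10 to 24 turned Amotl2 under PEG to 0.41 and libraries 1 to 9 turned Yap1 in controls to 0.87. For the interaction, Ajuba turned to 0.32 with limma-voom, 0.49 without covariate and 1.14 in libraries 10 to 24, which also turned Lats2 to -0.029, Vgll3 to 1.25 and Yap1 to 0.45; the i5 index turned Ptpn14 to 0.086 and Yap1 to 0.35. Of marker levels under PEG, endothelium in HEV turned to -0.01 at a pseudocount of 10, and smooth muscle in FRC to 0.03 with summed CPM.

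Leaving out each library gave these ranges where a sign turned. PEG in FRC: Amotl2 -0.20 to 0.038, Axl -0.20 to 0.017, Lats2 -0.23 to 0.13, Ptpn14 -0.24 to 0.015. PEG in HEV: Amotl1 -0.22 to 0.27, Btg2 -0.67 to 0.027, Lats2 -0.24 to 0.62, Ptpn14 -1.29 to 0.01, Wwtr1 -0.25 to 0.20, Yap1 -0.57 to 0.75. Cell types: Amotl2 under PEG -0.34 to 0.38, Lats2 in controls -0.039 to 0.79. Interaction: Ajuba -0.65 to 0.21, Axl -1.23 to 0.45, Lats2 -0.17 to 0.59, Ptpn14 -0.57 to 0.11, Vgll3 -4.78 to 1.29, Wwtr1 -0.11 to 0.18, Yap1 -0.60 to 0.49.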
